A study of Mus musculus with 18 samples.

Results

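Expression of 36 genes of glycolysis and of the hypoxia response that goes with it was followed through 18 RNA-seq libraries of mouse CD8+ T cells. The genes were taken by symbol from a fixed list: glucose transporters, the enzymes from hexokinase to lactate dehydrogenase, lactate transporters, the pyruvate dehydrogenase switch, and the HIF-1 system with some of its targets. All 36 were present in the 3 expression tables, which hold 17738 (culture), 13537 (Nr4a1RFP+ and Tim-3+ cells) and 13610 genes (Ly108+ cells). The study asked how NR4A1, an orphan nuclear receptor induced by T cell receptor signalling, acts in stem-like tumour-infiltrating CD8+ T cells.

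The libraries fall into 8 groups. In culture, CD8+ T cells infected with a virus that raises Nr4a1 expression (Nr4a1-OV, 2 libraries) were set against cells infected with the control virus RV-GFP (2 libraries). Cells labelled Nr4a1 KO (2 libraries) were set against cells labelled Nr4a1 WT (2 libraries), both started as naive cells and activated on plates coated with anti-CD3 and anti-CD28 at 2 μg/mL. All 8 cultured libraries were made after restimulation with PMA and ionomycin for 2 h, so every cultured value below is from acutely stimulated cells. OT-I cells (T cells with a transgenic receptor for an ovalbumin peptide) were taken from tumours on day 21 after inoculation and sorted: 2 libraries were of Nr4a1RFP+ cells and 2 of Tim-3+ cells, all of WT genotype. Ly108+ OT-I cells from tumours were labelled Nr4a1 KO (Nr4a1-/-, 3 libraries) or Nr4a1 WT (Nr4a1+/+, 3 libraries). The KO allele, the number of animals behind a library, the multiplicity of infection and the strain background of the KO and WT cells were not stated in the labels. No label says that libraries of a group came from separate mice or cultures, so p-values measure the spread between libraries, which may be technical.

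Cultured libraries held about 16800000 to 17100000 counts and tumour libraries about 15200000 to 24100000 reads recovered from the RPKM values (reads per kilobase of exon, scaled to library size). Nr4a1 itself stood at 1513 and 1447 RPKM in Nr4a1-OV cells, against 564.7 and 624.5 RPKM in RV-GFP cells. In the cultured libraries labelled Nr4a1 KO it stood at 102.9 and 102.6 RPKM, against 82.7 and 96.3 RPKM in Nr4a1 WT. In the Ly108+ libraries it stood at 112.4, 100.6 and 102.2 RPKM in those labelled KO, against 53.9, 46.4 and 45.0 RPKM in those labelled WT. Nr4a1 mRNA was thus higher in every library labelled KO in both settings (log2 fold change 0.20, adjusted p = 0.0171 in edgeR for culture; 1.10, adjusted p = 0.000434 in limma for Ly108+ cells), which goes against the label if the whole transcript is lost. The deleted part is not given, and reads outside it check nothing. KO and WT below mean libraries labelled so, and every direction between them rests on these labels. All 8 CD8 T cell markers (Cd3d, Cd3e, Cd3g, Cd8a, Cd8b1, Cd2, Cd5 and Thy1) were at 1 RPKM or more in every library.

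Glycolysis turns glucose into pyruvate in the cytosol, and T cells raise it on activation: glucose enters through GLUT1 (Slc2a1) and GLUT3 (Slc2a3), is trapped by hexokinases, committed by phosphofructokinase, and ends as pyruvate that lactate dehydrogenase turns into lactate or pyruvate dehydrogenase passes to the mitochondrion. Several steps are encoded by sister genes with different tissue preference, such as the ubiquitous Eno1, the neuronal Eno2 and the muscle enolase Eno3. HIF-1, whose oxygen-regulated subunit is encoded by Hif1a, raises many of these genes, and prolyl hydroxylases (Egln1, Egln3) mark HIF-1α for destruction when oxygen is present; in T cells, receptor signalling through mTOR also raises HIF-1.

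Many start regions of these genes carry the letters that HIF-1 is known to bind. RefSeq promoter windows (300 bases around a start site, GRCm38.p6) were at hand for 35 of the 36 genes, 53 windows in all, and not for Slc2a3. The core of a hypoxia response element, ACGTG or GCGTG on either strand, was in 75.5% of the 53 windows and in 43.8% of all 32851 windows. Windows of the same gene can overlap, as for Eno1, so a site can be counted more than once. By gene, 32 of the 35 had a core in at least 1 window. The windows were not matched for base content, and the genes were listed partly as HIF targets. The E-box CACGTG, which contains ACGTG, was in 13.2% against 7.15%. The NR4A1 response element AAAGGTCA on either strand was in 3.77% (Eno1 and Pfkfb1) against 1.51%. A match is a description of letters and no evidence of binding. The window of Eno3 and parts of the windows of Hk2, Slc16a3, Slc16a1 and Pgk1 are shown, 5′ to 3′ on the strand of the gene. Hypoxia cores on either strand are in capitals. The parts do not show every core: the Slc16a1 window has a further ACGTG at position 21 after the start site. The genes shown are a selection. Aldoc, Eno2 and Pfkm, with wide changes below, are not shown, and the Eno2 window holds no core.
Eno3, chr11:70656926-70657225, plus strand: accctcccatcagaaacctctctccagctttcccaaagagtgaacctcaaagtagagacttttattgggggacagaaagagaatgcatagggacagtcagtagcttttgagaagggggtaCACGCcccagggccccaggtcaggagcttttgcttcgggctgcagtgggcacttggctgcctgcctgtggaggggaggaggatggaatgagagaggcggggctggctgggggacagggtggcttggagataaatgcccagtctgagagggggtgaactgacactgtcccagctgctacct
Hk2, chr6:82774465-82774704, minus strand: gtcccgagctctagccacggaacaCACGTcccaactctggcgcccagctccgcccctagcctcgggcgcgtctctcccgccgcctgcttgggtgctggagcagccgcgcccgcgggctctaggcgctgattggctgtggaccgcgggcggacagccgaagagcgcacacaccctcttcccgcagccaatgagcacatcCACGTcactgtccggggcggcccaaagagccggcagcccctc
Slc16a3, chr11:120948987-120949086, plus strand: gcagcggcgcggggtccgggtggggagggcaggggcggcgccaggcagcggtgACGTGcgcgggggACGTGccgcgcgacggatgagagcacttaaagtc
Slc16a1, chr3:104638454-104638553, plus strand: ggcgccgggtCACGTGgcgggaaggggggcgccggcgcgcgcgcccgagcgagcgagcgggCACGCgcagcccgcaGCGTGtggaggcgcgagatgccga
Pgk1, chrX:106186910-106187009, plus strand: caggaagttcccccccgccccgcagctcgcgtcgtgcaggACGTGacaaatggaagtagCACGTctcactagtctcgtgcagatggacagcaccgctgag

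In the next pair, also parts of windows, the capitals mark AAAGGTCA or its reverse complement alone. They are shown because their windows are the only ones of the 53 that hold it.
Eno1, chr4:150236513-150236572, plus strand: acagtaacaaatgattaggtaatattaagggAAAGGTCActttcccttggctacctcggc
Pfkfb1, chrX:150589786-150589845, plus strand: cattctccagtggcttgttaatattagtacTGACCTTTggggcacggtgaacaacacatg

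Levels differed widely among the 36 genes and among the groups. In RPKM, a scale that corrects for the length of each gene model, Ldha was the highest in all 4 cultured groups, with 342 and 354 in Nr4a1-OV, 422 and 419 in RV-GFP, 500 and 508 in KO and 614 and 546 in WT cells. Ldha, the lactate dehydrogenase subunit that favours pyruvate to lactate, was also highest in Nr4a1RFP+ (341 and 299) and Tim-3+ cells (322 and 395). In Ly108+ cells Hif1a was highest instead, with 164, 164 and 151 RPKM in KO and 167, 169 and 167 RPKM in WT. Ldha was next, at 147, 145 and 148 RPKM in KO and 124, 131 and 134 RPKM in WT. The gap between Hif1a and Ldha in Ly108+ KO cells was smaller than the range of Hif1a over its 3 libraries. Hk3, the hexokinase of myeloid cells, was among the lowest, at 0.0299 to 0.177 RPKM in cultured libraries and 0.305 to 0.660 RPKM in Ly108+ libraries. The 3 tables were normalized separately, so levels across tables are set side by side without a test. Reads of Gapdh, Aldoa, Eno1, Tpi1, Ldha, Pgk1 and Pgam1 can be split with near-identical copies, and the labels do not say how such reads were counted. Gapdh stood at 25.4 to 52.0 RPKM over the 18 libraries.

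**Figure D1:**
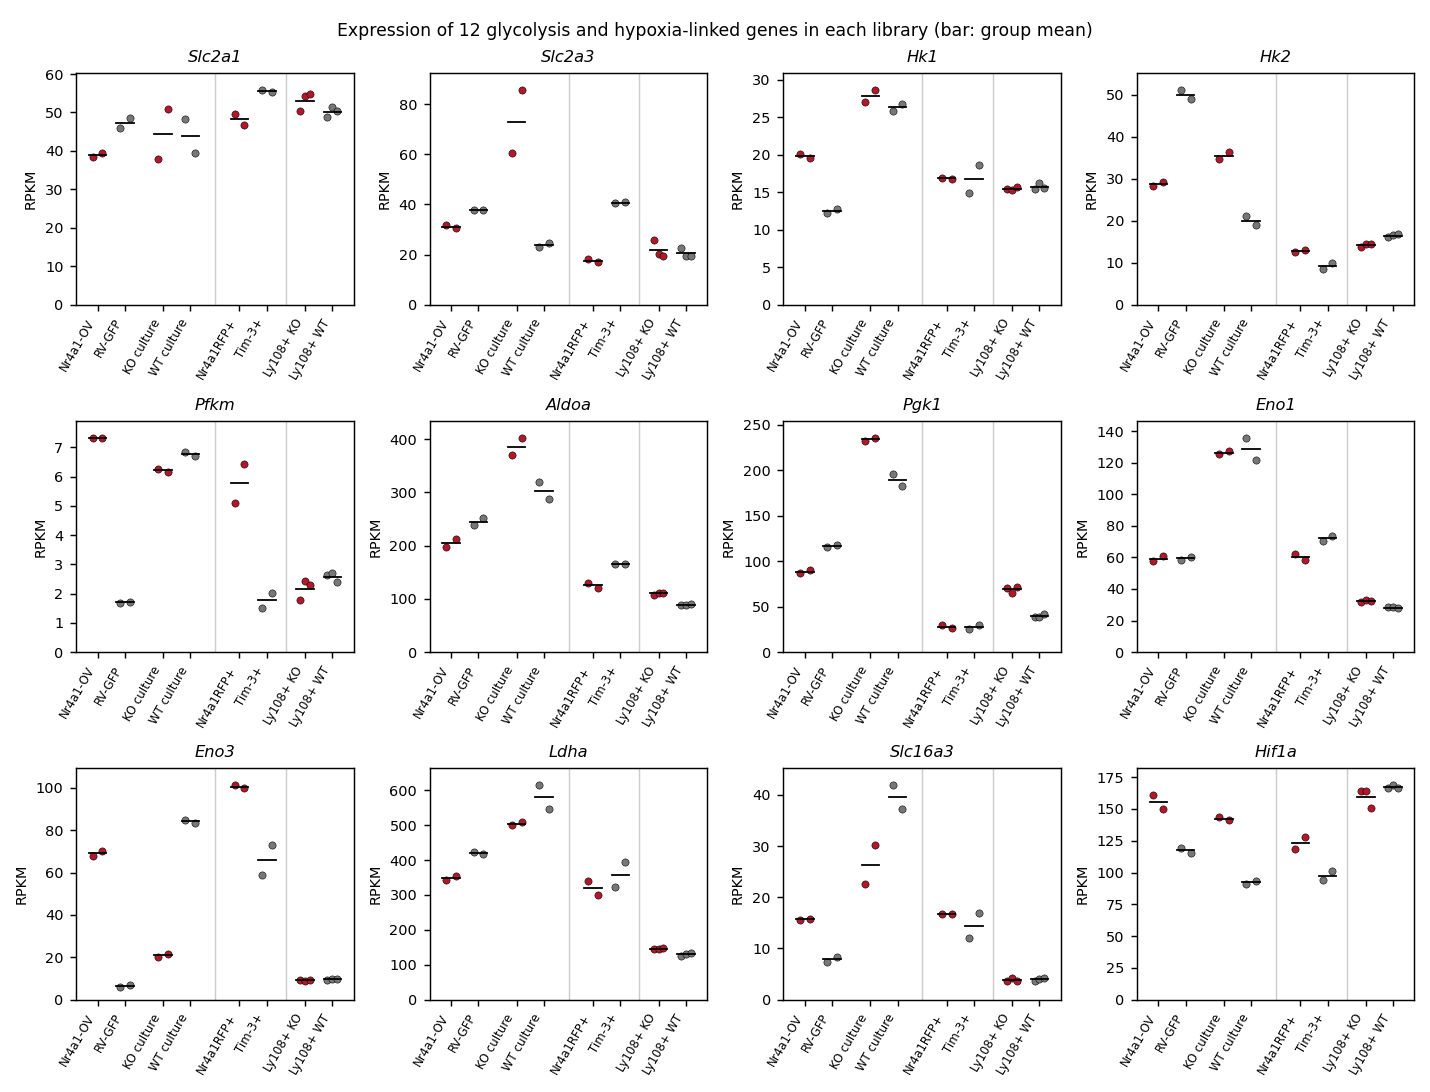
RPKM (linear axis from 0) of 12 of the 36 genes in each of 18 libraries; points are libraries, bars group means, and grey lines separate the 3 tables, which were normalized separately. Eno3 lies at 68.1 and 70.2 in Nr4a1-OV and 6.11 and 6.75 in RV-GFP, but at 20.3 and 21.5 in KO and 85.0 and 83.5 in WT culture.

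With Nr4a1 raised, most of these genes changed, in both directions. Of 35 genes tested between Nr4a1-OV and RV-GFP (Hk3 was too low), 26 passed an adjusted p of 0.05 in edgeR, 12 higher and 14 lower, or 74.3% of the genes tested. The background was large: 60.9% of all 14994 genes passed, 31.3% higher and 29.6% lower. The median log2 fold change was -0.062 over the 35 genes and 0.019 over all genes. At least 1.5-fold higher were 8 of the 35 genes, against 20.4% of all genes, and at least 1.5-fold lower 3, against 11.8% of all genes.

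At the entry step, the glucose transporters were slightly lower in Nr4a1-OV cells. Slc2a3 was at 31.7 and 30.5 RPKM in Nr4a1-OV, against 37.8 and 37.7 RPKM in RV-GFP, and Slc2a1 at 38.4 and 39.4 RPKM in Nr4a1-OV, against 46.0 and 48.5 RPKM in RV-GFP. Groups did not overlap for either gene, as for 79.6% of all genes tested. Log2 fold changes were -0.28 for both (SE 0.10, adjusted p = 0.0180 and 0.0181), a call that DESeq2 did not make (adjusted p = 0.146 and 0.155). The Slc2a3 call was also lost without Nr4a1-OV replicate 2 (adjusted p = 0.0782), and the Slc2a1 call without Nr4a1-OV replicate 1 (0.0737) or RV-GFP replicate 2 (0.0563). The hexokinases moved against each other. Hk2, the inducible hexokinase of activated and tumour cells, was at 28.3 and 29.2 RPKM in Nr4a1-OV, against 51.1 and 49.0 RPKM in RV-GFP (log2 fold change -0.80, SE 0.06, adjusted p = 1.13e-10). Hk1, the housekeeping hexokinase, was at 20.1 and 19.6 RPKM in Nr4a1-OV, against 12.2 and 12.7 RPKM in RV-GFP (0.68, SE 0.06, adjusted p = 1.07e-09). Hk2 made up 58.3% and 59.7% of the summed hexokinase RPKM in Nr4a1-OV cells, against 80.5% and 79.3% in RV-GFP cells.

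In the phosphofructokinase family, which makes the committed step, the muscle form moved most. Pfkm was at 7.32 and 7.32 RPKM in Nr4a1-OV, against 1.68 and 1.73 RPKM in RV-GFP, 4.31-fold higher (log2 fold change 2.11, SE 0.11, adjusted p = 6.79e-13). Its model shares 341 bp of exon with Gm26513 on the same strand, so some reads cannot be told apart. The platelet form Pfkp (-0.31) and the liver form Pfkl (-0.28; adjusted p = 0.0825 with DESeq2) fell, and they stayed the bulk of the family: Pfkm made up 10.2% and 10.6% of its RPKM in Nr4a1-OV cells, against 2.08% and 2.18% in RV-GFP cells. Of the enzymes that make and break fructose 2,6-bisphosphate, the activator of phosphofructokinase, Pfkfb4 passed the test at a very low level, with 0.277 and 0.359 RPKM in Nr4a1-OV against 0.120 and 0.0807 RPKM in RV-GFP (1.65, SE 0.36, adjusted p = 0.00049). Pfkfb3, the abundant one, was at 25.4 and 24.3 RPKM in Nr4a1-OV, against 27.2 and 27.5 RPKM in RV-GFP, and did not pass (-0.13, adjusted p = 0.0754). Of the aldolases, the brain form Aldoc fell (-0.64, SE 0.20, adjusted p = 0.00844) at 1.01 and 0.947 RPKM in Nr4a1-OV against 1.68 and 1.39 RPKM in RV-GFP, a call lost without RV-GFP replicate 1 (adjusted p = 0.0784).

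The widest change of all 36 genes was in the enolases. Eno3, the muscle enolase (GRCm38 chr11:70657202-70662513, plus strand), was at 68.1 and 70.2 RPKM in Nr4a1-OV cells, against 6.11 and 6.75 RPKM in RV-GFP cells. That is 10.8-fold higher (log2 fold change 3.43, SE 0.08, adjusted p = 1.1e-18). Eno3 made up 52.3% and 52.1% of all enolase RPKM in Nr4a1-OV, against 9.36% and 9.92% in RV-GFP. In counts, which are not divided by gene length, Eno3 stayed below Eno1 in Nr4a1-OV, with 2018 and 2092 against 5315 and 5594. Eno2 rose as well, at a low level, with 4.15 and 3.94 RPKM in Nr4a1-OV against 0.775 and 0.905 RPKM in RV-GFP (2.27, SE 0.15, adjusted p = 1.97e-11). Eno1, with an NR4A1 response element in 1 of its 3 windows, stood at 58.0 and 60.7 RPKM in Nr4a1-OV and 58.3 and 60.3 RPKM in RV-GFP. The Eno1 groups overlapped, and its log2 fold change was 0.00 (SE 0.06, adjusted p = 0.967). Pfkfb1, the other gene with this element, was at 0.740 to 0.774 RPKM in Nr4a1-OV, against 0.604 to 0.632 RPKM in RV-GFP, and did not pass. In cultured KO against WT cells Pfkfb1 was lower (-0.41, adjusted p = 0.0254 in edgeR), a call that DESeq2 did not make (0.225). Pgam1, the mutase ahead of enolase, was at 22.9 and 23.7 RPKM in Nr4a1-OV, against 33.2 and 33.0 RPKM in RV-GFP (-0.50, SE 0.08, adjusted p = 1.34e-05). Of the other lower enzymes, Pkm (-0.41) and Pgk1 (-0.39) fell, and Tpi1 (-0.06) and Gapdh (0.01) did not pass.

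At the exit, the lactate transporters moved in opposite directions. Slc16a3 (MCT4), a lactate exporter and a known HIF target, was at 15.6 and 15.8 RPKM in Nr4a1-OV, against 7.41 and 8.31 RPKM in RV-GFP, 2.00-fold higher (SE 0.11 on the log2 scale, adjusted p = 4.35e-08). Slc16a1 (MCT1), which carries lactate and pyruvate either way, was at 76.8 and 78.2 RPKM in Nr4a1-OV, against 115.7 and 118.6 RPKM in RV-GFP (-0.59, SE 0.05, adjusted p = 1.44e-09). Slc16a1 remained the larger of the pair in both groups. Pdk2, 1 of the kinases that switch pyruvate dehydrogenase off, rose, with 2.91 and 2.78 RPKM in Nr4a1-OV against 1.73 and 1.76 RPKM in RV-GFP (0.71, SE 0.17, adjusted p = 0.000945) and the dehydrogenase subunit Pdha1 fell (-0.38), while Pdk1 (0.12) and Pdk3 (-0.07) did not pass. Ldha fell (-0.27) and the heart subunit Ldhb rose at a low level (0.48, adjusted p = 0.0258). The Ldhb call was lost with DESeq2 (adjusted p = 0.128), without Nr4a1-OV replicate 2 (0.285) and without RV-GFP replicate 1 (0.296).

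Hif1a rose, and the HIF targets among the 36 genes moved both ways. Hif1a was at 160.7 and 150.2 RPKM in Nr4a1-OV, against 119.5 and 115.2 RPKM in RV-GFP (log2 fold change 0.41, SE 0.05, adjusted p = 4.99e-07). Bnip3, a mitophagy receptor, rose, with 3.96 and 4.56 RPKM in Nr4a1-OV against 2.30 and 3.15 RPKM in RV-GFP (0.65, SE 0.21, adjusted p = 0.0128), a call lost with DESeq2 (adjusted p = 0.130), without Nr4a1-OV replicate 2 (0.0794) and without RV-GFP replicate 1 (0.206). The prolyl hydroxylase gene Egln1 rose (0.30, adjusted p = 0.00446), a call lost with DESeq2 (0.131) and without RV-GFP replicate 1 (0.105). P4ha1, a collagen prolyl hydroxylase subunit, fell (-0.40), and Vegfa, the angiogenic growth factor, was at 17.98 and 18.1 RPKM in Nr4a1-OV against 22.04 and 20.2 RPKM in RV-GFP without passing (-0.22, adjusted p = 0.0728). Egln3 did not pass either (0.06). The 14 genes called beyond the 12 with the widest changes had log2 fold changes of 0.22 to 0.48 in size, 4 higher and 10 lower. Among these 14, the Gpi1 call was lost without RV-GFP replicate 1 (adjusted p = 0.0685).

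In cultured KO cells against WT cells, 21 of 35 genes tested passed, 10 higher and 11 lower (60%, against 40.1% of all genes tested, 18.4% higher and 21.6% lower). The median log2 fold change was -0.011 over the 35 genes and -0.026 over all genes. At least 1.5-fold higher were 6 genes, against 7.99% of all genes, and at least 1.5-fold lower 2, against 5.27% of all genes. Of the 11 lower genes, 7 kept their call without Nr4a1 WT replicate 1. Slc2a3, Aldoc, Vegfa and Egln3 rose most, and Eno3 was again the gene with the widest change, now lower.

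Slc2a3, which encodes the high-affinity transporter GLUT3, was at 60.7 and 85.6 RPKM in KO cells, against 22.9 and 24.6 RPKM in WT cells. Both KO libraries were above both WT libraries, 3.09-fold on average (log2 fold change 1.63, SE 0.10, adjusted p = 2.31e-11). Between these groups, 68.8% of all genes tested did not overlap. Slc2a1 showed no such difference, with 38.0 and 51.0 RPKM in KO, against 48.3 and 39.5 RPKM in WT, groups that overlap (0.02, SE 0.10). The share of Slc2a3 in the summed RPKM of both transporters was 61.5% and 62.7% in KO, against 32.1% and 38.3% in WT. Hk2 was at 34.6 and 36.3 RPKM in KO, against 21.0 and 19.03 RPKM in WT (0.83, SE 0.06, adjusted p = 3.26e-10), while Hk1 was at 27.0 and 28.6 RPKM in KO and 25.8 and 26.8 RPKM in WT (0.08, adjusted p = 0.253).

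Further down, Aldoc rose and Tpi1 fell. Aldoc was at 13.5 and 14.6 RPKM in KO, against 3.70 and 4.86 RPKM in WT (log2 fold change 1.71, SE 0.10, adjusted p = 3.24e-11), and the main aldolase Aldoa rose by less (0.35). Tpi1, the isomerase between the aldolase products, was at 141.8 and 169.2 RPKM in KO, against 254.3 and 216.7 RPKM in WT (-0.60, SE 0.07, adjusted p = 1.57e-06). Pfkl was at 18.6 and 23.7 RPKM in KO, against 31.8 and 26.6 RPKM in WT (-0.46, SE 0.09, adjusted p = 0.000162). Pfkp rose (0.39), and within phosphofructokinase Pfkl made up 28.9% and 31.7% in KO cells, against 44.6% and 40.9% in WT cells. Eno3 was at 20.3 and 21.5 RPKM in KO, against 85.0 and 83.5 RPKM in WT, 4.03-fold lower (-2.01, SE 0.06, adjusted p = 3.25e-16). Its share of enolase RPKM was 13.6% and 14.2% in KO, against 38.0% and 40.2% in WT, with Eno1 not passing the test (-0.03, SE 0.05).

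Of the genes that act on pyruvate and lactate, Slc16a3, Pdk3, Pdk2 and Ldha fell in KO cells, Slc16a1 rose, and Ldhb (-0.13), Pdk1 (-0.13) and Pdha1 (0.10) did not pass. Slc16a3 was at 22.5 and 30.2 RPKM in KO, against 41.8 and 37.3 RPKM in WT (log2 fold change -0.58, SE 0.09, adjusted p = 1.85e-05). Pdk3 was at 33.3 and 31.1 RPKM in KO, against 44.7 and 44.6 RPKM in WT (-0.47, SE 0.06, adjusted p = 8.25e-07). Pdk2 was at 1.73 and 1.68 RPKM in KO, against 1.88 and 2.82 RPKM in WT (-0.47, SE 0.17, adjusted p = 0.0312). Its call was lost with DESeq2 (adjusted p = 0.137), in a fit of the 4 libraries alone (0.0614), without KO replicate 1 (0.0927) or 2 (0.124) and without Nr4a1 WT replicate 2, where the log2 fold change was -0.15 (0.588). Pkm (-0.21) and Ldha (-0.20) fell by little, and both calls were lost without Nr4a1 WT replicate 1 (adjusted p = 0.0540 and 0.139). Slc16a1 rose by 0.25.

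In the HIF system, Hif1a, Egln3 and Vegfa rose in KO cells. Hif1a was at 143.7 and 141.1 RPKM in KO, against 91.1 and 93.4 RPKM in WT (log2 fold change 0.63, SE 0.05, adjusted p = 3.42e-09). Egln3, the hydroxylase that HIF-1 itself induces, was at 23.8 and 33.8 RPKM in KO, against 14.6 and 12.2 RPKM in WT (1.11, SE 0.11, adjusted p = 1.13e-07). Vegfa was at 12.6 and 18.1 RPKM in KO, against 6.395 and 5.31 RPKM in WT (1.39, SE 0.12, adjusted p = 8.4e-09). Bnip3 was at 5.49 and 9.19 RPKM in KO against 9.32 and 8.12 RPKM in WT, groups that overlap (-0.24, adjusted p = 0.236), and Egln1 (-0.01) and P4ha1 (0.08) did not pass. The other 9 calls ran from 0.20 to 0.41 in size, 4 of them higher. Among them Pgam1, whose groups overlap, was not called without KO replicate 1 (adjusted p = 0.428) or Nr4a1 WT replicate 1 (0.588), and Pfkfb1 was not called without any 1 of the 4 libraries (0.0722 to 0.117). The KO libraries differed from each other for some of these genes: replicate 2 stood 1.28 to 1.68 times above replicate 1 for Slc2a1, Slc2a3, Pfkl, Slc16a3, Bnip3, Egln1, Egln3 and Vegfa. These are the genes past a fixed cut on this ratio in KO cells, 22.9% of the 35 genes, against 9.5% of all genes. Past the same cut were 5.71% of the 35 in each other cultured group, against 8.98% to 10.4% of all genes. The highest such ratio among the 35 genes was 1.30 in Nr4a1-OV, 1.37 in RV-GFP and 1.49 in WT cells. The lowest was 0.935 in Nr4a1-OV, 0.67 in RV-GFP (Pfkfb4), 0.88 in KO and 0.798 in WT cells (Eno2).

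Nr4a1-OV against RV-GFP and KO against WT share no library, so their calls can be set against each other. Of the 26 and 21 genes called, 15 were called in both (57.7% of the Nr4a1-OV calls and 71.4% of the KO calls, against 46.8% and 71.1% among all genes), 10 in opposite directions and 5 in the same direction. Among all genes, 4270 were called in both and 60.7% of those were opposite, against 66.7% of the 15. Eno3, Slc16a3 and Pdk2 rose in Nr4a1-OV and fell in KO cells. Hk2, Slc2a3, Aldoc, Aldoa, Pgk1, Pfkp and Slc16a1 fell in Nr4a1-OV and rose in KO cells. Hif1a rose in both, and Pkm, Ldha, Pgam1 and Pfkl fell in both.

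The difference between the effects was tested directly, as the Nr4a1-OV effect minus the KO effect. It passed for 29 of 35 genes (82.9%), 15 above and 14 below 0, against 55.8% of all genes tested, 29.6% above and 26.2% below 0. A difference of at least 1.5-fold was called for 10 genes above 0, against 21.3% of all genes, and for 9 below 0, against 15.8%. Of the 15 genes above 0, 8 kept their call with DESeq2 and 9 without RV-GFP replicate 1. It was widest for Eno3 (log2 difference 5.44, SE 0.10, adjusted p = 1.17e-19), followed on the positive side by Pfkm (2.23), Eno2 (2.00), Slc16a3 (1.59), Pfkfb4 (1.28), Pdk2 (1.18) and Bnip3 (0.89). The Bnip3 call was lost with DESeq2 (adjusted p = 0.133) and without RV-GFP replicate 1 (0.0936), and the Pfkfb4 call with DESeq2 (0.0723) and without Nr4a1-OV replicate 2 (0.0656) or RV-GFP replicate 2 (0.113). On the negative side stood Aldoc (-2.36, SE 0.23), Slc2a3 (-1.90, SE 0.14), Hk2 (-1.62, SE 0.08), Vegfa (-1.61, SE 0.16) and Egln3 (-1.04, SE 0.16). The other 17 calls were 0.21 to 0.84 in size, and Slc2a1, Gpi1, Pfkl, Gapdh, Eno1 and Ldha did not pass.

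**Figure D2:**
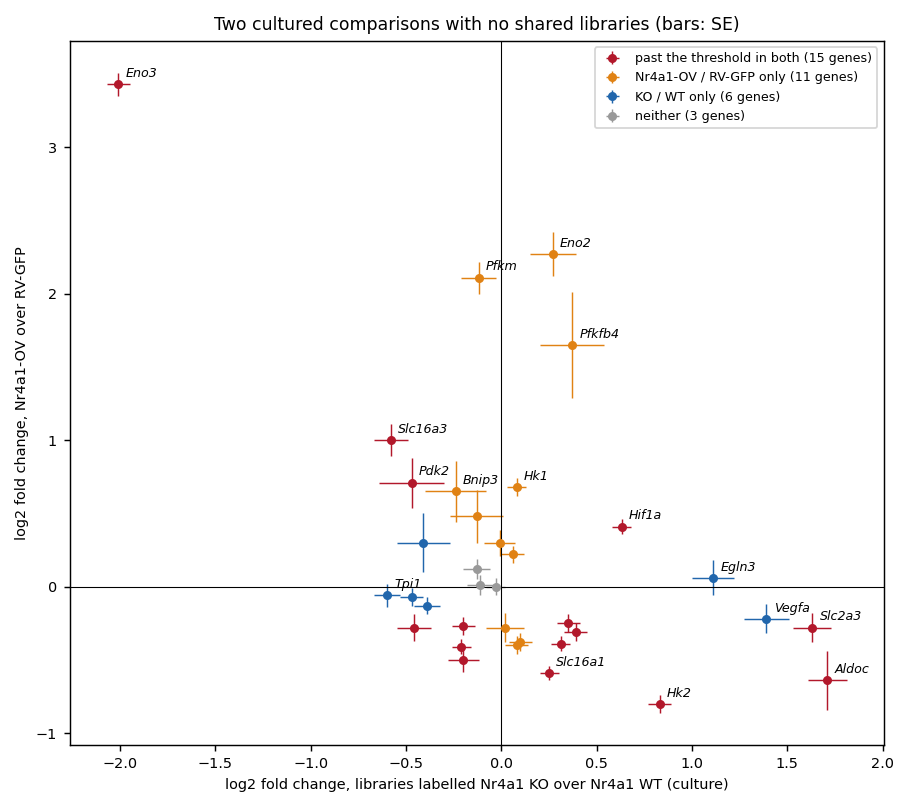
Log2 fold change of 35 genes in KO over WT culture (horizontal) and in Nr4a1-OV over RV-GFP (vertical), bars showing SE from edgeR and colours showing in which comparison the adjusted p was under 0.05. Eno3 (-2.01, 3.43) is far from the rest at top left, and Hk2, Slc2a3 and Aldoc lie at bottom right.

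Genes listed as markers of other cell types also moved with these groups. The CD4 T cell markers Cd4, Zbtb7b and Foxp3, none at 0 in a whole group, summed to 59.6 to 60 RPKM in Nr4a1-OV, against 2.64 to 2.69 RPKM in RV-GFP. Foxp3, the regulatory T cell factor, was higher in Nr4a1-OV (log2 fold change 6.32) and lower in KO (-3.36), and Zbtb7b was higher in Nr4a1-OV (1.05), while Cd4 did not pass there (-0.15). Their sum was 5.37 to 5.97 RPKM in KO against 5.01 to 5.46 RPKM in WT. Of 10 myeloid markers, 5 were in the culture table, none at 0 in a whole group except Cd14 in RV-GFP. They summed to 2.85 to 3.04 RPKM in Nr4a1-OV against 4.23 to 4.83 RPKM in RV-GFP, and to 12.9 to 13.6 RPKM in KO against 4.92 to 5.08 RPKM in WT, nearly all of it Cd68. The B cell markers Cd79a, Cd79b and Ighm summed to 137 to 144 RPKM in KO against 247 to 281 RPKM in WT, and to 162 to 168 RPKM in Nr4a1-OV against 130 to 131 RPKM in RV-GFP. Of the NK markers, Ncr1 and Klrb1c were not listed in culture, so Eomes stood alone and NK cells were not told apart by it. Eomes was at 57.2 to 62.6 RPKM in KO against 18.6 to 19.8 RPKM in WT. In Nr4a1-OV it was at 45.4 to 49.1 RPKM, against 24 to 25 RPKM in RV-GFP. The 4 listed tumour and stroma markers summed to 18.6 RPKM in both KO libraries against 23.6 to 26.2 RPKM in WT, and to 19 to 19.3 RPKM in Nr4a1-OV against 12.5 to 13.7 RPKM in RV-GFP. The 1 listed erythroid marker was at 0.0229 to 0.121 RPKM in all cultured libraries. The part of these in the results above was not tested. In bulk RNA, fewer cells of a type and less RNA per cell cannot be told apart.

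RV-GFP cells and cultured WT cells, each the control of a comparison above, differed from each other in most of these genes. Of 35 genes, 32 passed, 10 higher and 22 lower in RV-GFP (91.4%, against 71.0% of all genes, 32.4% higher and 38.6% lower), with a median log2 fold change of -0.456 over the 35 genes and -0.068 over all. At least 1.5-fold higher were 6, against 19.4% of all genes, and at least 1.5-fold lower 15, against 27.9% of all genes. Nr4a1 was at 564.7 and 624.5 RPKM in RV-GFP, against 82.7 and 96.3 RPKM in WT, so these controls differ in the studied gene too. Infection, activation and culture cannot be told apart here. Since each group is also part of a comparison above, the values below are given side by side and no likeness between comparisons is drawn from them.

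Genes of the enolases, of Pfkm and of Slc16a3 were far lower in RV-GFP cells, with the levels of both groups given above for most of them. Pfkm stood at 1.68 and 1.73 RPKM in RV-GFP, against 6.84 and 6.71 RPKM in WT. Eno3 (log2 fold change -3.70, SE 0.08, adjusted p = 9.23e-20), Pfkfb4 (-3.17, SE 0.29), Slc16a3 (-2.32, SE 0.10), Pfkm (-1.98, SE 0.11), Bnip3 (-1.67, SE 0.19), Pfkfb1 (-1.63, SE 0.17), Eno2 (-1.57, SE 0.16), Aldoc (-1.47, SE 0.15) and Ldhb (-1.35, SE 0.16) all fell, with adjusted p from 9.23e-20 to 1.81e-07. Eno1, the main enolase, was at 58.3 and 60.3 RPKM in RV-GFP, against 135.7 and 122.0 RPKM in WT (-1.11, SE 0.06, adjusted p = 1.49e-13). Higher in RV-GFP were Vegfa (1.86, SE 0.12), Hk2 (1.33, SE 0.06), Slc16a1 (1.32, SE 0.05) and Pfkfb3 (1.02, SE 0.07), with adjusted p from 1.6e-15 to 8.55e-12. Slc2a1 (0.11), Pfkl (-0.05) and Pgam1 (0.12) did not pass.

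**Figure D3:**
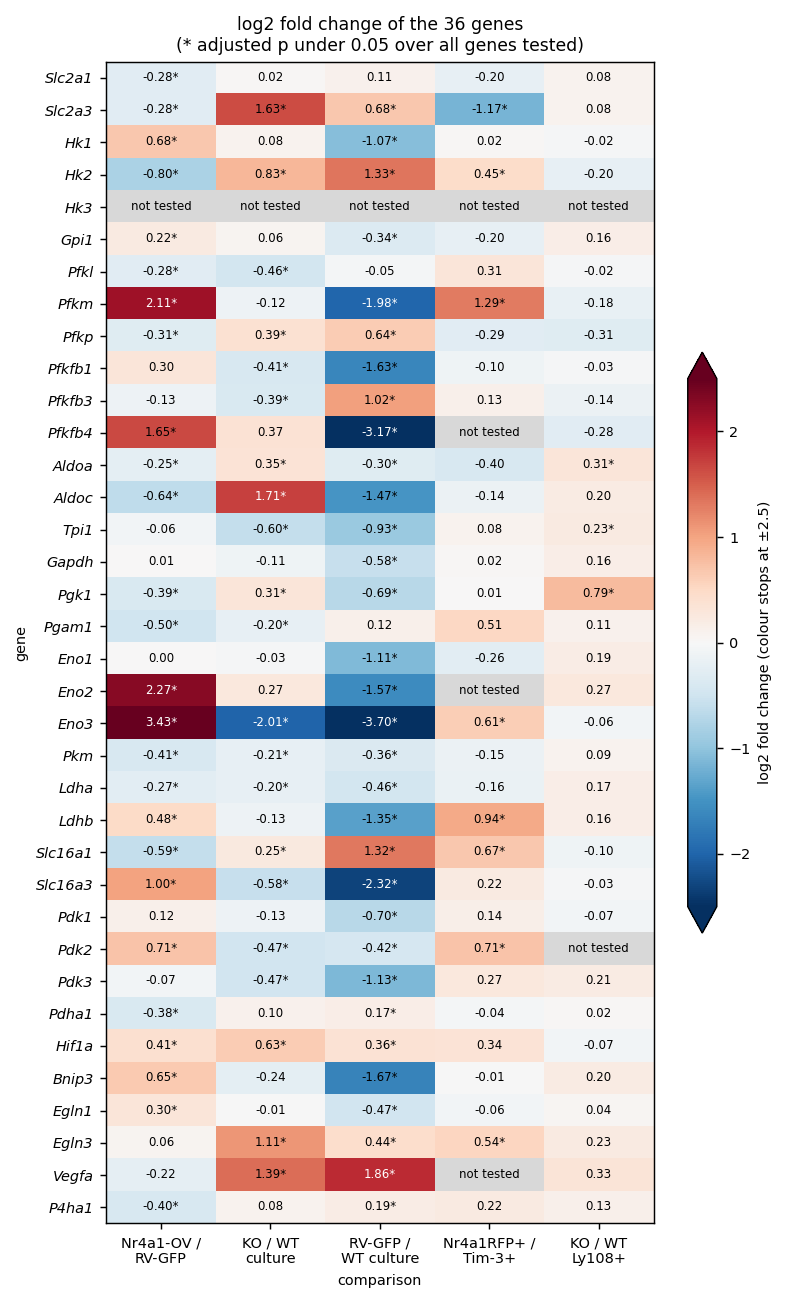
Log2 fold change (colour, printed in each cell) of the 36 genes in 5 comparisons, the first group over the second; culture values are from counts and tumour values are on the log2(RPKM + 1) scale. Stars mark an adjusted p under 0.05; 26, 21, 32, 8 and 3 genes have one, left to right.

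The balance between sister genes gives a view of each library on its own. The labels do not give the library kit of each sample, so kit and cell state cannot be told apart where shares differ between tables. Over all 18 libraries Aldoa held 96.5% to 99.6% of aldolase RPKM and Ldha 97.9% to 99.7% of lactate dehydrogenase RPKM, while the Eno3 share of enolase RPKM ran from 9.36% to 62.8%. Eno3 held 61.8% and 62.8% in Nr4a1RFP+ cells, against 45.5% to 49.7% in Tim-3+ cells, and 20% to 21.7% in Ly108+ KO cells, against 23.5% to 25% in Ly108+ WT cells. Slc16a3 held from 6.02% to 6.54% of the summed MCT1 and MCT4 RPKM in RV-GFP up to 44.5% to 46.7% in cultured WT. These shares use RPKM and so depend on the gene lengths in the tables. Those lengths were within 5% of the GENCODE M21 exon union for 35 of the 36 genes, Aldoa (27.3% longer) being the exception. An exon union pools the exons of all transcripts of a gene: it was 5379 bp for Eno1 and 1739 bp for Eno3, and 13401 bp for Pfkp and 3340 bp for Pfkm. Shares of counts therefore differ from these shares, and which transcripts were made was not tested.

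**Figure D4:**
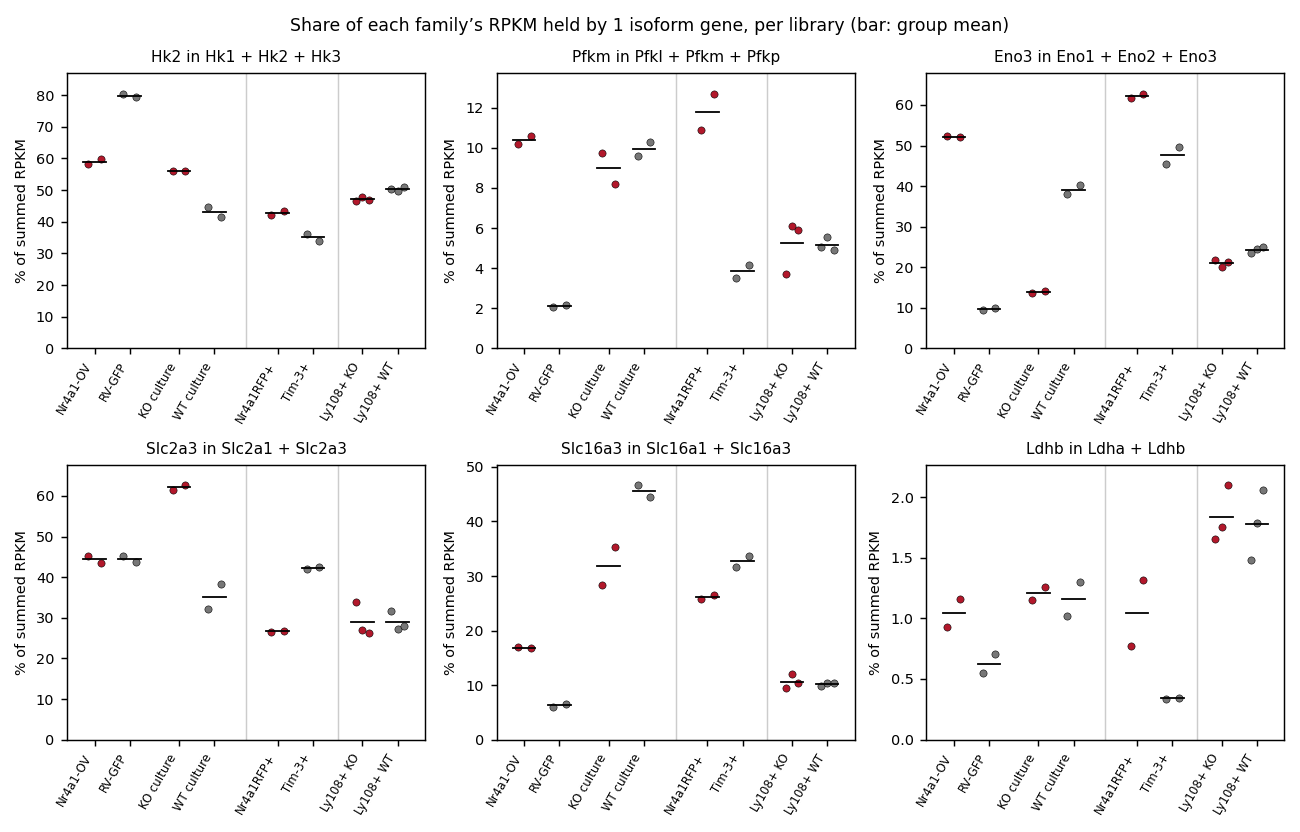
Percent of a family's summed RPKM held by 1 gene, per library (points) with group means (bars), on axes from 0; red marks Nr4a1-OV, KO and Nr4a1RFP+ and grey the group each is set against. Hk2 holds 58.3% and 59.7% of hexokinase RPKM in Nr4a1-OV and 80.5% and 79.3% in RV-GFP.

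In tumours, Nr4a1RFP+ and Tim-3+ cells differed for some of the genes, chiefly upward. Of 32 genes tested with limma (Hk3, Pfkfb4, Eno2 and Vegfa were under 1 RPKM in too many libraries), 8 passed, 7 higher and 1 lower in Nr4a1RFP+ cells (25%, against 17.7% of all 9508 genes, 9.08% higher and 8.61% lower). At least 1.5-fold higher were 5, against 6.32% of all genes, and at least 1.5-fold lower 1, against 5.89%. The median log2 fold change of RPKM + 1 was 0.048 over the 32 genes and -0.009 over all. Tim-3 is the product of Havcr2, used for the sort: it was at 18.39 and 13 RPKM in Nr4a1RFP+, against 214.9 and 235.9 RPKM in Tim-3+ cells. Nr4a1 itself was at 113.2 and 114.6 RPKM in Nr4a1RFP+ and 131.9 and 125.0 RPKM in Tim-3+ cells.

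Slc2a3 was the gene that fell. It was at 18.1 and 17.1 RPKM in Nr4a1RFP+, against 40.6 and 41.0 RPKM in Tim-3+ cells (log2 fold change -1.17, SE 0.11, adjusted p = 0.000542). Slc2a1 was at 49.7 and 46.8 RPKM in Nr4a1RFP+, against 55.8 and 55.3 RPKM in Tim-3+ cells, without passing (-0.20, adjusted p = 0.263). Hk2 rose, with 12.6 and 13.1 RPKM in Nr4a1RFP+ against 8.495 and 9.82 RPKM in Tim-3+ cells (0.45, SE 0.12, adjusted p = 0.0394).

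Pfkm rose most, with 5.10 and 6.43 RPKM in Nr4a1RFP+ against 1.52 and 2.01 RPKM in Tim-3+ cells (log2 fold change 1.29, SE 0.15, adjusted p = 0.00144). Eno3 was at 101.2 and 99.9 RPKM in Nr4a1RFP+, against 59.1 and 72.9 RPKM in Tim-3+ cells (0.61, SE 0.14, adjusted p = 0.0233). At the pyruvate step, Ldhb (0.94, SE 0.17, adjusted p = 0.00936), Pdk2 (0.71, SE 0.12, adjusted p = 0.00797) and Slc16a1 (0.67, SE 0.14, adjusted p = 0.018) rose. Ldhb was at 2.66 and 4.01 RPKM in Nr4a1RFP+, against 1.09 and 1.37 RPKM in Tim-3+ cells, and Pdk2 at 4.34 and 4.13 RPKM in Nr4a1RFP+, against 2.44 and 1.96 RPKM in Tim-3+ cells. Slc16a1 was at 48.3 and 46.3 RPKM in Nr4a1RFP+, against 25.8 and 33.2 RPKM in Tim-3+ cells. Groups did not overlap for any of these, as for 61.2% of all genes tested. Egln3 rose at 3.43 and 2.82 RPKM in Nr4a1RFP+ against 2.00 and 1.69 RPKM in Tim-3+ cells (0.54, SE 0.13, adjusted p = 0.0291).

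The backbone enzymes did not pass: Gapdh (0.02), Pgk1 (0.01), Tpi1 (0.08), Pkm (-0.15) and Ldha (-0.16) had adjusted p from 0.476 to 0.959, and Aldoa missed at -0.40 (adjusted p = 0.0635). Hif1a was at 118.5 and 128.3 RPKM in Nr4a1RFP+, against 94.1 and 101.1 RPKM in Tim-3+ cells, and did not pass (0.34, adjusted p = 0.107). Vegfa rested on 2 recovered reads in every one of these 4 libraries. The calls depend on single libraries: 3 genes were called without Nr4a1RFP+ replicate 1, 4 without replicate 2, and 15 without Tim-3+ replicate 2. Both without Nr4a1RFP+ replicate 1 and without replicate 2, 4 genes lost their calls: Slc16a1 (adjusted p up to 0.123), Eno3 (0.181), Egln3 (0.246) and Hk2 (0.351), while their log2 fold changes stayed between 0.35 and 0.85 over all alternatives. The Pdk2 call was lost without Nr4a1RFP+ replicate 1 (0.0565), and those of Egln3 (0.0598) and Hk2 (0.0566) also with no filter on low values. The Tim-3+ libraries differed from each other by a chi-square of 42 per degree of freedom, and the Nr4a1RFP+ libraries by 11.4. This value was 2.08 to 11.1 within Ly108+ groups and 2.63 to 3.29 within cultured groups. Of 5 erythroid markers, none was at 0 in a whole group, and their sum was 1.84 to 70 RPKM in Nr4a1RFP+ against 23.1 to 35.5 RPKM in Tim-3+ cells. The 10 myeloid markers, none at 0 in a whole group, summed to 51.2 to 58.8 RPKM in Nr4a1RFP+ against 56.1 to 64.8 RPKM in Tim-3+ cells. Of the 5 tested, 1 was higher, Cd68 (log2 fold change 1.52), and 3 were lower, among them Fcer1g (-2.82). That is 80.0% called, against 17.7% of all genes. The 6 listed tumour and stroma markers summed to 16.6 to 16.9 RPKM in Nr4a1RFP+ against 9 to 9.01 RPKM in Tim-3+ cells, and the NK markers to 23.8 to 28.3 RPKM in Nr4a1RFP+ against 17.7 to 21.4 RPKM in Tim-3+ cells. The B cell marker Cd79b was higher in Nr4a1RFP+ cells (log2 fold change 0.49, adjusted p = 0.0297), and the CD4 T cell markers summed to 0.638 to 0.695 RPKM in Nr4a1RFP+ against 0.983 to 1.21 RPKM in Tim-3+ cells. Their part in the result was not tested.

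In Ly108+ cells, the progenitor-like fraction of tumour CD8+ T cells, few genes of this pathway passed between KO and WT, all higher in KO. Of 34 genes tested (Hk3 and Pdk2 were too low), 3 passed, all higher in KO (8.82%, against 4.45% of all 11265 genes, 2.04% higher and 2.41% lower). At least 1.5-fold higher was 1, against 0.586% of all genes, and at least 1.5-fold lower 0, against 0.577%. The median log2 fold change of RPKM + 1 was 0.084 over the 34 genes and 0.004 over all. The 3 genes were Pgk1, Aldoa and Tpi1. Passing or not, 10 of the 34 genes lay above WT in every KO library, 4 lay below and 20 overlapped. That is 41.2% not overlapping, against 29.4% of all genes tested.

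Pgk1, whose product, phosphoglycerate kinase, makes ATP (GRCm38 chrX:106187100-106203699, plus strand), was at 69.95, 65.5 and 71.8 RPKM in KO, against 38.2, 38.5 and 42.2 RPKM in WT cells. Every KO library was well above every WT library (log2 fold change 0.79, SE 0.06, adjusted p = 0.000533), and the call held under all 11 alternatives. Aldoa was at 107.3, 111.3 and 112.0 RPKM in KO, against 88.1, 88.0 and 90.5 RPKM in WT (0.31, SE 0.04, adjusted p = 0.0125). Tpi1 was at 39.0, 38.9 and 39.4 RPKM in KO, against 33.4, 32.2 and 33.95 RPKM in WT (0.23, SE 0.04, adjusted p = 0.0309). Groups did not overlap for these, as for 29.4% of all genes tested. The Aldoa call was lost without KO replicate 2 or 3 or WT replicate 2 or 3 (adjusted p 0.0578 to 0.0792). The Tpi1 call was lost without KO replicate 2 or 3 or any 1 WT library (0.0748 to 0.142). Eno1 was next by p, with 31.7, 32.7 and 32.4 RPKM in KO against 28.4, 28.7 and 27.7 RPKM in WT (0.19, SE 0.04, adjusted p = 0.0503). It passed without KO replicate 1 (0.0257) and in edgeR on recovered reads (0.0378).

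Eno3, Slc2a3 and Hk2, with wide changes in culture, did not pass here. Eno3 was at 9.50, 8.73 and 9.42 RPKM in KO and 9.27, 9.88 and 9.88 RPKM in WT (log2 fold change -0.06, adjusted p = 0.547). Slc2a3 was at 25.9, 20.03 and 19.4 RPKM in KO and 22.7, 19.3 and 19.5 RPKM in WT (0.08, adjusted p = 0.721). The groups overlapped for both genes. Hk2 was at 13.7, 14.4 and 14.5 RPKM in KO, against 16.1, 16.5 and 16.8 RPKM in WT, lower in every KO library without passing (-0.20, adjusted p = 0.0627). Hif1a (-0.07), Vegfa (0.33), Egln3 (0.23) and Bnip3 (0.20) did not pass.

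Other cells' markers moved with the KO label in this sort. Of 10 myeloid markers, none at 0 in a whole group, the sum was 106 to 140 RPKM in Ly108+ KO against 66.9 to 83 RPKM in Ly108+ WT, and 3 of the 7 tested (Lyz2, Cd14 and Fcer1g) were higher. The 6 listed tumour and stroma markers summed to 58.3 to 67.7 RPKM in KO against 53.5 to 54.6 RPKM in WT, with Col1a1 higher (log2 fold change 1.28). The 4 listed erythroid markers summed to 13.9 to 19.5 RPKM in KO against 7.84 to 15.4 RPKM in WT. The 2 listed B cell markers summed to 85.3 to 86.9 RPKM in KO against 58.3 to 66.3 RPKM in WT, with Ighm higher (0.46), and the NK markers to 28.1 to 36.5 RPKM in KO against 29.3 to 37.6 RPKM in WT. Cd4 and Zbtb7b summed to 4.14 to 4.27 RPKM in KO against 3.17 to 4.44 RPKM in WT. Their part in the differences of Pgk1, Aldoa and Tpi1 was not tested.

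**Figure D5:**
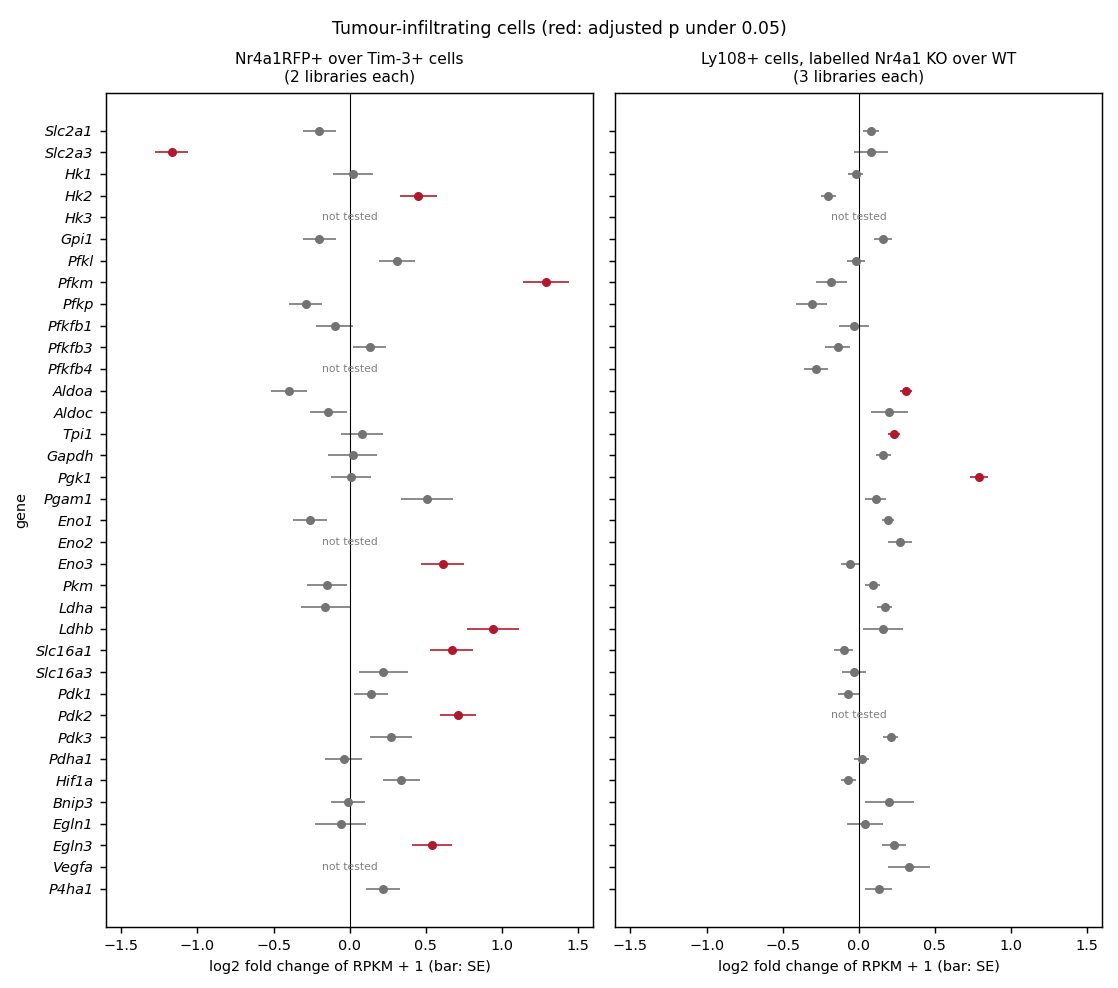
Log2 fold change of RPKM + 1 with SE (bars) for each of the 36 genes in the tumour comparisons, Nr4a1RFP+ over Tim-3+ (left panel) and Ly108+ KO over WT (right panel). Red points have an adjusted p under 0.05 in limma: 8 on the left, with Slc2a3 alone below 0, and 3 on the right, with Pgk1 at 0.79.

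Side by side over the 3 tables, some genes sat at very different levels in tumour cells. Vegfa was at 0.0157 to 0.0228 RPKM in Nr4a1RFP+ and Tim-3+ libraries, 1.75 to 3.65 RPKM in Ly108+ libraries and 5.31 to 22.04 RPKM in culture. Pgam1 was at 54.4 to 98.1 RPKM in Nr4a1RFP+ and Tim-3+ libraries, 7.19 to 8.71 RPKM in Ly108+ libraries and 22.9 to 33.3 RPKM in culture. Gpi1, the isomerase after hexokinase, was at 19.4 to 23.8 RPKM in Nr4a1RFP+ and Tim-3+ libraries and 82.5 to 103.2 RPKM in Ly108+ libraries. The series used BGI or Smartseq2 libraries without saying which sample had which, so library kit and cell state cannot be told apart in these contrasts.

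Neighbouring genes that are not among the 36 were followed as 4 lists. Of further glycolysis and pyruvate enzymes, 6 rose and 7 fell of 21 tested in Nr4a1-OV (61.9% called, against 60.9% of all genes), and 6 rose and 5 fell of 21 in cultured KO cells (52.4%, against 40.1%). Pdk4, another kinase that shuts pyruvate dehydrogenase, had 149 and 172 counts in Nr4a1-OV and 0 counts in both RV-GFP libraries, at least 48-fold higher against a floor of 3 counts per library. Pdp1, the phosphatase that reverses such kinases, rose too (log2 fold change 0.99), as did the transporter Slc2a8 (2.36), and Pck2, the mitochondrial PEP carboxykinase, fell (-1.31). In KO cells Pck2 (1.29), Gpd2 (0.69) and Tigar (0.56) rose and Pgam2 fell (-1.29). Of pentose phosphate and glycogen enzymes, 8 rose and 5 fell of 17 in Nr4a1-OV (76.5%, against 60.9%), where the phosphorylase Pygb rose (1.10) and the pentose phosphate enzymes Rpia (-0.76) and Tkt (-0.59) and the ribose-phosphate kinase Prps1 (-0.73) fell. In KO cells 6 rose and 4 fell of 17 (58.8%, against 40.1%), among them Prps1 (0.45), Pygl (1.46), Rpe (0.32) and Pgd (-0.31).

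Of further HIF targets, 10 rose and 6 fell of 20 in Nr4a1-OV (80.0% called, against 60.9% of all genes), and 11 rose and 7 fell of 20 in KO cells (90.0%, against 40.1%). Mxi1 (1.82), Rora (2.29) and the mitophagy receptor gene Bnip3l (1.49) rose and Stc2 (-1.91) fell in Nr4a1-OV. In KO cells Bhlhe40 (1.31), Ero1l (0.85) and Nrn1 (0.67) rose and Bnip3l (-0.60) fell. Among HIF and glucose regulators, 7 rose and 2 fell of 14 in Nr4a1-OV (64.3%, against 60.9%), and 2 rose and 6 fell of 14 in KO cells (57.1%, against 40.1%). Txnip, a glucose-induced brake on glucose uptake, rose in Nr4a1-OV (1.62, SE 0.08) and fell in KO cells (-0.85, SE 0.08), and the difference of the effects was 2.47 (SE 0.12, adjusted p = 3.62e-13). Arrdc4 (1.23), a relative of Txnip, and Arnt (0.77), the partner of HIF-1α, also rose in Nr4a1-OV, and Hif3a rose in KO cells (1.14).

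In tumours few genes of these lists passed. Between Nr4a1RFP+ and Tim-3+ cells, where 17.7% of all genes were called, 1 of 17 further glycolysis genes rose, the transporter Slc2a6 (log2 fold change 3.44, SE 0.11, adjusted p = 3.01e-05), and 1 fell, Gpd2 (-0.59). Of 16 further HIF targets 5 rose, P4ha2 (1.62), Nrn1 (1.53), Rora (1.15), Ddit4 (1.10) and Fam162a (1.05), and none fell. Of 14 pentose phosphate and glycogen genes 3 fell (Pgls, Taldo1 and Ugp2), and of 13 regulators Arrdc4 rose (0.95) and Epas1 fell (-1.12). In Ly108+ cells, where 4.45% of all genes were called, 17 further glycolysis genes, 15 pentose phosphate and glycogen genes, 16 further HIF targets and 13 regulators were tested with limma; none rose, and Rora alone fell (-0.31, SE 0.07, adjusted p = 0.046).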

How the data were processed

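RNA from 18 libraries in 8 groups was sequenced. Per the submitters' processing notes, the reads were handled with Trim Galore, HISAT2, edgeR and DESeq2 on mouse genome build mm10. Versions, the read counter and its annotation are not stated in the labels, nor is which library was prepared by BGI or with Smartseq2. For the 8 cultured libraries the authors deposited raw counts per gene together with RPKM. For the 10 tumour libraries they deposited RPKM, a unit inferred from the values. The 3 tables were normalized separately, and every test stayed within 1 table. Of the value columns, 2 matched no labelled library and were not used, and columns named for exhausted cells were taken as the Tim-3+ libraries.

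Counts were tested with edgeR 4.0.16 in R 4.3.3 (TMM scaling, filterByExpr, quasi-likelihood test, 8 cultured libraries in 1 fit). RPKM values were tested with limma 3.58.1 (trended variance) on log2(RPKM + 1), which understates the change of low genes, over genes with at least 1 RPKM in as many libraries as the smaller group has. P-values are two-sided and Benjamini-Hochberg adjusted over all genes tested, with a threshold of 0.05. SE and fold changes are from these fits. DESeq2 1.42.0, another scaling, no low-value filter, fits of the compared libraries alone, another pseudocount (0.1), a replicate block and leaving out each library were the alternatives. Of the tumour values, 97.8% to 98.9% were whole reads within 0.05 once scaled, over the 88.78% and 95.61% of genes with a known length, and edgeR on these recovered reads was added after seeing the data. The scripts were tested on simulated data.

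The 36 genes and all other lists were chosen with earlier results of these data known. Where more than 12 genes passed, the 12 with the widest changes have full statistics. Where fewer than 4 passed, the 4 with the smallest p are named. Up to 4 genes past the threshold are named for each other list, by smallest p. Positions are GENCODE M21 (GRCm38), and promoter windows are from RefSeq (GRCm38.p6). Figures were drawn with matplotlib 3.10.9 in Python 3.11.15.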

Additional observations from a re-analysis of the deposited data

Results flagged for a closer look

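For 8 of the 34 genes tested in both settings (23.5%), all KO libraries lay on one side of all WT libraries in culture and on the other side in Ly108+ cells, against 10.3% of all genes tested in both. For 5 genes (14.7%, against 11.5% of all genes), Aldoa, Pgk1, Eno2, Egln3 and Vegfa, they lay on the same side, above WT, in both settings. Of the 8, Tpi1 alone passed the threshold in both settings, with a log2 fold change of KO over WT of -0.60 in culture (adjusted p = 1.57e-06, edgeR) and 0.23 in Ly108+ cells (adjusted p = 0.0309, limma). In 5 of the 8, the threshold was passed in culture and missed in Ly108+ cells. The log2 fold change of Hk2 was 0.83 in culture and -0.20 in Ly108+ cells (adjusted p = 0.0627 in Ly108+ cells, limma). Pfkp stood at 0.39 in culture and -0.31 in Ly108+ cells (0.129), Hif1a at 0.63 and -0.07 (0.45), Pdk3 at -0.47 and 0.21 (0.0637) and Ldha at -0.20 and 0.17 (0.0806), with the adjusted p in Ly108+ cells from limma in brackets. The other two passed in neither setting: Pfkfb4 stood at 0.37 in culture (adjusted p = 0.0898, edgeR) and -0.28 in Ly108+ cells (0.103, limma), and Gapdh at -0.11 (0.218) and 0.16 (0.127). The culture values come from counts and the Ly108+ values from log2(RPKM + 1) in a table normalized separately, so the difference between the settings was not tested.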

How the results depend on the processing

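Counted in both directions together, the calls in culture stayed within 1.5 times of those reported under every alternative run, and no call reversed its direction. Over the called genes and alternatives, the side of the threshold was kept in 218 of 234 pairs for Nr4a1-OV against RV-GFP, 172 of 189 for KO against WT, 279 of 288 for RV-GFP against WT, 306 of 348 for the difference of the effects, 61 of 72 for Nr4a1RFP+ against Tim-3+ and 24 of 33 for Ly108+ KO against WT. Leaving out 1 library at a time gave 3 to 15 genes of the 36 between Nr4a1RFP+ and Tim-3+ cells and 629 to 3225 of all genes, against 8 and 1682. For Ly108+ KO against WT it gave 1 to 5 genes of the 36 and 68 to 1686 of all genes, against 3 and 501. A library left alone in its group was assumed to vary like the others. With edgeR on recovered reads, added after seeing the data, Ly108+ cells had 5 and 978 calls. The cause was not tested. Groups of 2 or 3 libraries limit all of these tests, and depth limits genes with few reads, such as Hk3, Pfkfb4 and Vegfa in Nr4a1RFP+ and Tim-3+ cells.

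With the replicate number as a block, calls among the 36 genes and among all genes were 28 and 9519 for Nr4a1-OV, 23 and 6781 for KO, 32 and 10928 for RV-GFP, 31 and 8793 for the difference of the effects, 8 and 2143 for Nr4a1RFP+ and 3 and 485 for Ly108+ KO. Deviations of same-numbered libraries correlated across genes at 0.156 (Nr4a1-OV and RV-GFP), 0.0924 (KO and WT), 0.217 (Nr4a1RFP+ and Tim-3+) and 0.124, 0.146 and -0.0876 (Ly108+), and no label ties the numbers, so they were not treated as pairs.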
